A study of Mus musculus with 6 samples.

Results

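The suppressors of cytokine signalling (SOCS) are a family of inhibitors encoded by Cish and Socs1 to Socs7, and all 8 genes were found by symbol among the 55538 Ensembl genes of the table. The cells were primary cultures from the cortex of C57BL/6 embryos at day 14.5, labelled as neurons and kept in medium with serum. After dissociation they rested for 2 h at 37 °C. One group then stayed at 37 °C for 60 min (control), another was kept at 42 °C for 15 min and the third at 42 °C for 60 min. Each group has 2 total RNA libraries, called s1 and s2 here, 6 in all, and how many embryos or cultures stand behind a library is not stated, so p-values measure only the spread between these libraries, which may be technical. No control of 15 min is described, so time in culture and heat cannot be told apart at 15 min, nor between 60 and 15 min at 42 °C.

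SOCS proteins switch cytokine receptors off again. A cytokine joins its receptor chains, the attached Janus kinases (JAK) phosphorylate the receptor and STAT transcription factors, and the STATs enter the nucleus and switch on, among other genes, Cish, Socs1, Socs2 and Socs3, whose products then act back on the receptor. Each SOCS protein binds phosphotyrosine through an SH2 domain and, through its SOCS box, recruits elongin B, elongin C and cullin 5, a ubiquitin ligase that marks the bound protein for degradation. SOCS1 and SOCS3 also block JAK activity directly. In the embryonic cortex, gp130 cytokines such as LIF and CNTF act through STAT3, which SOCS3 limits, and SOCS7 is known in mice for acting on Dab1, the adaptor of Reelin signalling that places migrating neurons in layers.

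Values are the authors' normalised signal, TPM multiplied by a further factor per library that is not stated, so they are scaled to transcript length and can be compared between genes, while read depth is unknown. Column totals ran from 892768 to 1056380. One library, control s1, differed from the rest: 29309 of its genes had a signal of 1 or more, where the remaining libraries had 19035 to 21796, so results that rest on it are also given without it. Neuronal markers were present in every library: the summed signal of 9 genes such as Tubb3, Map2 and Dcx ran from 1816 to 2430, and that of 8 progenitor genes such as Vim, Pax6 and Sox2 from 2342 to 3338. The sums over 8 microglial and macrophage genes (12.3 to 23.3), 6 endothelial and mural genes (11.6 to 19.6) and 6 astrocyte genes (56.1 to 76.0) were lower. That of 6 erythroid genes ran from 200 to 457, and 0 of the 53 markers of all lists was at 0 in any library.

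The family fell into 2 tiers of level. Socs6, Socs2, Socs7, Socs4 and Socs5 averaged 38.7, 38.1, 32.3, 24.4 and 23.8 over the 6 libraries, and Socs3, Cish and Socs1 averaged 7.52, 5.43 and 0.502. The genes tested were the 21954 whose mean was 1 or higher, of which 80.2% lay below Socs6 in mean, 52.6% below Socs3 and 47.1% below Cish. Socs1 did not reach that mean and was not tested. The 5 genes of the upper tier were above the other 3 in every library.

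Within the upper tier most neighbours could not be ordered. In control the order was Socs6, Socs7, Socs2, Socs5 and Socs4, at 15 min Socs2, Socs6, Socs7, Socs4 and Socs5, and at 60 min Socs6, Socs2, Socs7, Socs4 and Socs5. Of these neighbours in level the libraries of 1 pair did not overlap, namely Socs6 over Socs7 at 15 min. Below them Socs3 stood apart from Cish in control but overlapped with it at 15 min and at 60 min, and Cish stood apart from Socs1 in all 3 groups.

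**Figure D1:**
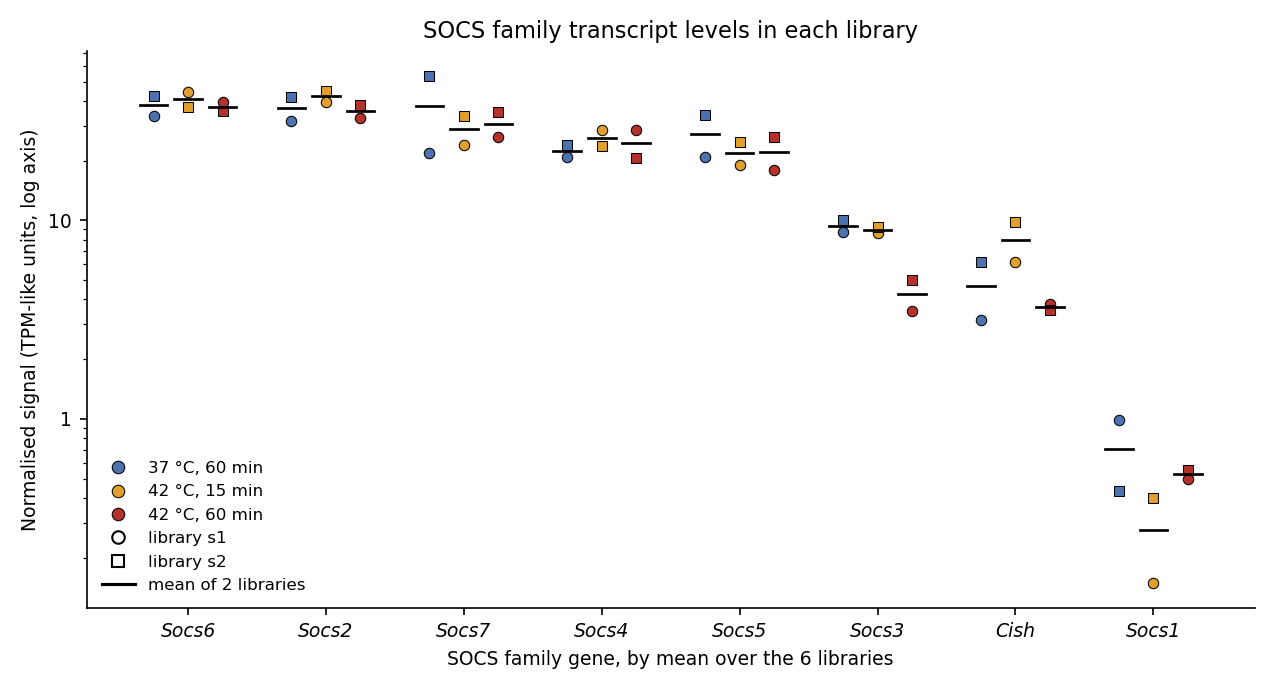
Normalised signal of the 8 SOCS family genes (log axis) in each of the 6 libraries: circles are library s1, squares library s2 and black lines the mean of the 2 libraries of a group. Socs3 at 60 min (3.50 and 4.98) lies below its 4 other libraries (8.59 to 10.02), and Cish is highest in the 15 min library s2 (9.76).

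Socs3, which binds gp130 and the leptin receptor and blocks the attached JAK, had the largest difference from control among the members tested. It was at 8.78 and 10.02 in the control libraries, at 8.59 and 9.28 after 15 min at 42 °C, and at 3.50 and 4.98 after 60 min. Both 60 min libraries lay below the other 4, while the control and 15 min libraries overlapped. Since these are bulk libraries, fewer cells that express Socs3 and less Socs3 RNA per cell cannot be told apart.

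Set against control, Socs3 averaged 4.24 ± 1.05 at 60 min and 9.40 ± 0.872 in control (SD, n = 2 each), a ratio of 0.451. The log2 change, taken on log2(value + 1), was −1.0 ± 0.24 (SE), with a 95% interval of −1.57 to −0.43. It did not pass limma's test over all genes (adjusted p = 0.401, unadjusted p = 0.0046), and 1.14% of the genes tested had a smaller p. Against 15 min, where Socs3 averaged 8.93 ± 0.488, the change at 60 min was −0.94 ± 0.24 (limma adjusted p = 0.565). After 15 min it was −0.06 ± 0.24 relative to control (interval −0.63 to 0.50, limma adjusted p = 0.937).

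Over the 12 alternatives the Socs3 difference at 60 min ran from −1.21 without the 60 min library s2 to −0.64 with a pseudocount of 5. The filters, the replicate block and leaving out a 15 min library cannot move this estimate. With both 60 min values below both controls, neither a pseudocount nor leaving out a library can turn its sign. With median-of-ratios scaling, which can, it was −0.83. Without control s1 it was −1.09 and without control s2 −0.92, and the limma adjusted p ran from 0.137 to 1 over the alternatives. Median-of-ratios scaling moved the median change of all genes at 60 min from control by 0.17, at 15 min from control by 0.29 and between 60 and 15 min by −0.13. Relative to the median of all genes, Socs3 at 60 min was at −0.88 as deposited and at −0.88 with that scaling. That scaling divides all genes of a library by a common factor, so it leaves this relative value nearly unchanged by construction.

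Markers of other cell types are given beside Socs3. At 60 min from control the groups did not overlap for 32.6% of all genes tested, and 19.8% of all were lower. The 6 endothelial and mural genes summed to 13.8 and 15.1 at 60 min against 19.6 and 19.2 in control, with 4 of the 6 below control in both libraries. At 15 min they summed to 11.6 and 15.9. The 5 oligodendrocyte lineage genes summed to 9.52 and 10.07 at 60 min against 15.9 and 11.5 in control, with 3 of the 5 below control, and to 11.9 and 11.1 at 15 min. The 8 microglial and macrophage genes summed to 17.7 and 15.7 at 60 min against 23.3 and 14.0 in control, with 0 of the 8 below control, and the 6 astrocyte genes to 70.9 and 73.6 against 76.0 and 59.2.

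Markers of the cultured cells themselves went both ways at 60 min. Of the 8 progenitor genes 3 lay below control in both 60 min libraries and 2 above. Over all genes tested 32.6% did not overlap between these groups, so no such count is read as a difference from all genes. The sum of the 8 progenitor genes, most of it Vim, was 3094 and 2673 at 60 min against 2342 and 2659 in control. Eomes, which marks intermediate progenitors, had 45.8 and 40.6 at 60 min against 89.9 and 101.8 in control, with 98.6 and 90.4 at 15 min. Sox2 had 77.7 and 62.8 at 60 min against 142 and 128 in control, with 135.9 and 86.6 at 15 min. Hes1 had 27.5 and 19.5 at 60 min against 33.1 and 50.6 in control, with 30.6 and 33.9 at 15 min. The 2 above control were Fabp7, with 463 and 377 against 326 and 313, and Vim, with 2180 and 1945 against 1413 and 1786. Of the 9 neuronal genes 2 lay below control and 1 above. Neurod6, of cortical excitatory neurons, had 128 and 157 at 60 min against 218 and 286 in control, with 243 and 289 at 15 min. Tubb3 had 456 in both 60 min libraries against 461 and 773 in control, with 604 and 723 at 15 min. Map2, the 1 above control, had 827 and 718 against 516 and 497. For Eomes, Sox2, Hes1, Neurod6 and Tubb3 alike the 60 min libraries lay below all control and 15 min libraries. Against 15 min, 4 genes of each list lay below and 0 above, where 48.5% of all genes tested did not overlap. The part of all these markers in the Socs3 difference was not tested.

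Cish encodes CIS, which binds receptors that signal through STAT5. It was at 3.14 and 6.17 in the control libraries, at 6.14 and 9.76 after 15 min, and at 3.80 and 3.53 after 60 min. Both 60 min libraries lay below both 15 min libraries, while the control libraries spread over a range that met those of both heated groups. The change at 60 min from 15 min was −0.91 ± 0.35 (SE), with an interval of −1.75 to −0.07 that left out 0, and it did not pass over all genes (limma adjusted p = 0.767, unadjusted p = 0.0375).

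Relative to control, Cish averaged 7.95 ± 2.56 at 15 min and 4.66 ± 2.14 in control (SD, n = 2 each), a log2 change of 0.69 ± 0.35 (limma adjusted p = 0.747). That change was 0.29 without control s1 and 1.08 without control s2. At 60 min Cish averaged 3.67 ± 0.195, and its change from control was −0.22 ± 0.35 (limma adjusted p = 0.908), or −0.62 without control s1 and 0.17 without control s2, so its sign rested on which control library was kept. Erythroid markers, from cells in which CIS acts on erythropoietin signalling, summed to 244 and 457 in control, 200.5 and 284 at 15 min and 285 and 282 at 60 min, and their part in the Cish values was not tested. In the annotation used here, 2 low pseudogene or antisense loci lie opposite Cish, with means of 0.446 and 0.908 over the libraries, and their reads may not be separable from those of Cish.

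The promoters of these 2 genes are shown because STAT binding to such sites is how cytokines switch them on. A STAT site was searched for as TTCNNNGAA, which reads the same on both strands. A pair of inverted heat shock units was searched for as GAANNTTC, which also reads the same on both strands. The windows run from 250 bases before to 50 bases after the gene's start in RefSeq on GRCm38.p6, at chr11:117969317-117969616 on the minus strand for Socs3 and at chr9:107296409-107296708 on the plus strand for Cish. They are given 5′ to 3′ on the gene's strand, with the STAT sites in capitals.
Socs3: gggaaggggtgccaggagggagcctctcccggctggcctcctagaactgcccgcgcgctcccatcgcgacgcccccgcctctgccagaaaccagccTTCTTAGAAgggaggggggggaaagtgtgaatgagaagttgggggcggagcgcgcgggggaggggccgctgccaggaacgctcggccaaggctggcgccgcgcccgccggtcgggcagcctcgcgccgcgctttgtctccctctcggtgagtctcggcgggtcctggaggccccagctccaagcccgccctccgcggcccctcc
Cish: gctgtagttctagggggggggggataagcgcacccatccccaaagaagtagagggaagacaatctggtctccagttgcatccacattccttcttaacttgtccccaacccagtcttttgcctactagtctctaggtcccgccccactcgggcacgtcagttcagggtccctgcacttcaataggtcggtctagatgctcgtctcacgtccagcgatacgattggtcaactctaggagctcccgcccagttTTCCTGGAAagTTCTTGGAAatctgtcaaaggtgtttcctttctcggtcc

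Socs3 held 1 match to the STAT letters, TTCTTAGAA, whose first base lies 154 bases before the start. Cish held 2, TTCCTGGAA and TTCTTGGAA, beginning at bases 1 and 12 counted from the start. Of 32851 RefSeq promoters of this length 8.3% held at least 1 match and 0.457% held 2 or more. Cish also held 1 match to the heat shock letters, which overlaps both of its STAT matches, and Socs3 held 0, against 7.86% of all promoters with at least 1. Promoters of 4 members were in the table, and the other 2, of Socs1 and Socs4, held 0 matches to either.

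Socs1 encodes the strongest inhibitor of interferon signalling in the family. It was at 0.982 and 0.433 in the control libraries, at 0.150 and 0.400 after 15 min and at 0.495 and 0.554 after 60 min. The 15 min values lay below the other 4, all at under 1, and control s1, the library with the most genes at 1 or above, was the highest. With no filter on low values the change was −0.41 ± 0.27 at 15 min from control (limma adjusted p = 0.769), −0.15 ± 0.27 at 60 min from control (limma adjusted p = 0.934) and 0.26 ± 0.27 at 60 min from 15 min (limma adjusted p = 1).

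Socs2 limits growth hormone signalling and, in mice, promotes neuronal differentiation. It was the most abundant of the cytokine-induced members, at 31.7 and 42.0 in the control libraries, 39.4 and 44.7 after 15 min and 32.9 and 38.0 after 60 min. The 60 min libraries lay below the 15 min libraries by a margin smaller than the spread between the 2 libraries of any group, and both groups overlapped with control. The change was −0.24 ± 0.21 at 60 min from 15 min (limma adjusted p = 0.919), 0.20 ± 0.21 at 15 min from control (limma adjusted p = 0.779) and −0.04 ± 0.21 at 60 min from control (limma adjusted p = 0.969).

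Socs4 and Socs5, a closely related pair that acts on the EGF receptor, overlapped across all 3 groups. Socs4 was at 20.8 and 23.9 in control, 28.6 and 23.6 at 15 min and 28.6 and 20.6 at 60 min. Socs5 was at 20.8 and 33.8 in control, 19.1 and 24.8 at 15 min and 18.0 and 26.3 at 60 min. At 60 min from control the change was 0.12 ± 0.23 for Socs4 (limma adjusted p = 0.916), with an interval of −0.44 to 0.68, and −0.27 ± 0.31 for Socs5 (limma adjusted p = 0.88), with an interval of −1.02 to 0.48.

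Socs6, known for binding the receptor KIT and insulin receptor substrates, had the smallest spread of the family, its highest value being 1.32 times its lowest. It was at 33.6 and 42.2 in control, 44.2 and 37.3 at 15 min and 39.4 and 35.4 at 60 min, and its change at 60 min from control was −0.01 ± 0.21 with an interval of −0.51 to 0.48 (limma adjusted p = 0.994). In the annotation used here, 3 processed pseudogenes overlap Socs6, with means of 0.405 to 0.428 over the libraries.

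Socs7, which acts on Dab1, had the widest spread between the libraries of a group among the members tested, on the log2(value + 1) scale. It was at 21.9 and 53.3 in control, 24.1 and 33.4 at 15 min and 26.1 and 35.0 at 60 min, so that both heated groups lay within the range of the controls. On the log2 scale control s1 was 1.25 below control s2, where that difference had an SD of 0.867 over all genes tested. The change at 60 min from control was −0.17 ± 0.42 with an interval of −1.19 to 0.84 (limma adjusted p = 0.929), and it was −0.80 without control s1 and 0.45 without control s2. Socs2, Socs3, Socs5 and Socs7 were each lower in s1 than in s2 in all 3 groups, and the share of all genes that were was not counted.

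**Figure D2:**
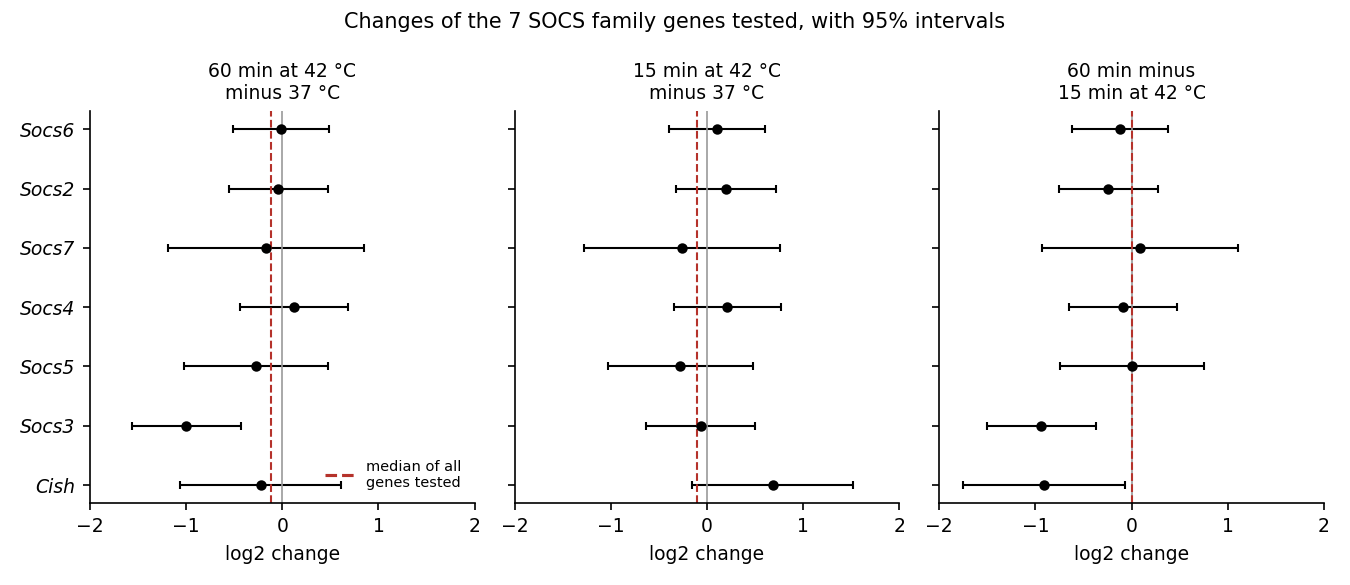
Change on the log2(value + 1) scale of the 7 members tested, with 95% intervals from limma, in each of the 3 comparisons; the dashed line is the median change of all genes tested. The intervals of Socs3 at 60 min from control (−1.57 to −0.43) and from 15 min (−1.51 to −0.37) and that of Cish at 60 min from 15 min (−1.75 to −0.07) leave out 0, and none of the 3 passed after adjustment over all genes.

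Counted over the family, 0 of the 7 members tested passed limma's test at an adjusted p of 0.05 in any comparison. The share of all genes that passed was 0.041% at 60 min from control, 0% at 15 min from control and 0.0182% at 60 min from 15 min. At an unadjusted p under 0.05 there was 1 member at 60 min from control, Socs3, where 8.34% of all genes were, 0 at 15 min from control, where 3.95% were, and 2 at 60 min from 15 min, Socs3 and Cish, where 6.19% were. The groups did not overlap for 1 of 7 members at 60 min from control, against 32.6% of all genes (19.8% in the lower direction, that of Socs3), for 0 of 7 at 15 min from control, against 34%, and for 3 of 7 at 60 min from 15 min, against 48.5%, namely Socs2, Socs3 and Cish, all lower at 60 min, where 22.6% of all genes were. With so few members 1 gene moves these shares widely, so no count is read as a difference from all genes. Each pair of comparisons shares the libraries of a group: those of 60 min, where Socs3 is counted in both, those of control, or those of 15 min.

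The median change of the 7 members at 60 min from control was −0.17, beside −0.12 over all genes, with 6 of 7 lower where 62.7% of all genes were lower. Its sign followed the control libraries and the scaling: it was −0.61 without control s1, 0.16 without control s2 and 0.01 with median-of-ratios scaling. At 15 min from control the median was 0.11 beside −0.098 over all genes, −0.054 without control s1, 0.31 without control s2 and 0.44 with median-of-ratios scaling, the last 2 with 7 of 7 higher. At 60 min from 15 min it was −0.12 beside 0.00087, and −0.26 with 7 of 7 lower under that scaling.

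Shares within the family do not depend on the unstated library factor. Socs4 to Socs7 held 65.0% to 73.4% of the family's summed signal, which ran from 142 to 212 over the libraries. Socs3 held 6.20% and 4.73% in control, 5.04% and 5.06% at 15 min and 2.29% and 3.03% at 60 min. Cish held 2.22% and 2.91% in control, 3.61% and 5.32% at 15 min and 2.49% and 2.15% at 60 min. Both 60 min libraries had the lowest Socs3 shares, and both 15 min libraries the highest Cish shares. In signal, Cish at 15 min overlapped with control, at 6.14 in 15 min s1 against 6.17 in control s2. The family sums of these libraries were 170 and 212, so the Cish shares also depend on the other members. Cish, Socs1 and Socs3 together held 5.10% and 5.51% at 60 min, against 9.12% and 7.85% in control.

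**Figure D3:**
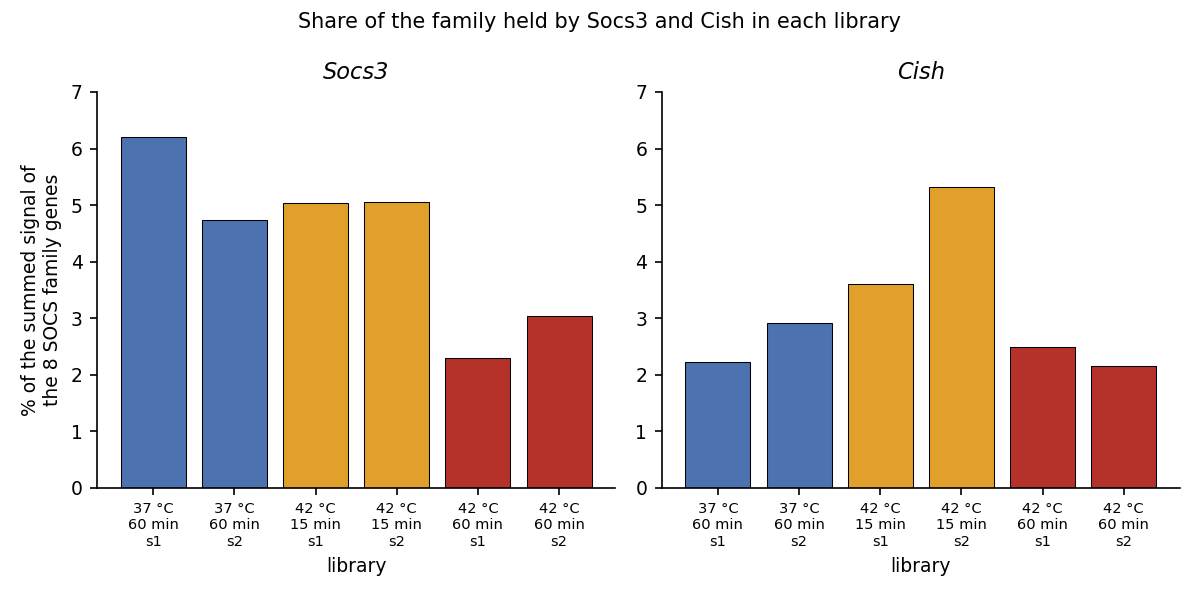
Percent of the summed signal of the 8 SOCS family genes held by Socs3 (left) and Cish (right), 1 bar per library. The Socs3 bars of the 60 min libraries (2.29% and 3.03%) are the lowest of the 6, and the Cish bars of the 15 min libraries (3.61% and 5.32%) are the highest. In signal, Cish at 15 min overlapped with control.

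None of the upstream genes of the pathway passed the test. Of 26 cytokine ligands 6 reached a mean of 1, among them the gp130 ligands Lif, Ctf1, Ctf2, Cntf and Clcf1, and 0 passed in any comparison. Cntf, ciliary neurotrophic factor, had 1.77 and 1.82 at 60 min, against a listed 0 and 1.39 in control. Of 28 receptors 22 were tested and 0 passed, with a median of −0.17 at 60 min from control and 19 of 22 lower, or 11 of 22 with median-of-ratios scaling. Without control s1 the median was −0.049, with 13 of 22 lower. The CNTF receptor Cntfr, the most abundant of them, had 42.0 and 39.6 at 60 min, against 50.1 and 52.5 in control (limma adjusted p = 0.717), and Il4ra, a chain of the interleukin 4 receptor, had 0.679 and 0.635 against 2.83 and 2.21 (limma adjusted p = 0.441).

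JAK and STAT transcripts were present throughout, and none of those named here passed in any comparison. Jak1 and Jak2 ran from 20.9 to 29.7 and from 19.3 to 30.9 over the libraries, Tyk2 from 3.82 to 6.22 and Jak3 from 0.809 to 2.28. Stat3, the factor downstream of gp130, was the most abundant STAT, at 31.6 and 49.1 at 60 min against 37.9 and 57.5 in control, followed by Stat5b, at 15.5 and 8.78 against 18.0 and 13.4. Stat2, which acts downstream of interferons, ran from 5.55 to 9.37, and Stat4, Stat5a and Stat6 stayed at 4.08 or below. The median log2 change of the STAT list at 60 min from control was −0.24, beside −0.12 over all genes, and it was −0.044 with median-of-ratios scaling and −0.18 without control s1.

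Of 22 targets of STAT3 tested 0 passed. The list shares Il6st and Osmr with the receptors and Irf1 with the interferon list. Its median was −0.24 at 60 min from control, with 18 of 22 lower, beside −0.12 and 62.7% lower over all genes. It was −0.098 with 16 of 22 lower under median-of-ratios scaling, and −0.18 with 18 of 22 lower without control s1. Bcl6, a transcriptional repressor, had 1.69 and 2.23 at 60 min against 5.56 and 6.93 in control (limma adjusted p = 0.365), and Nfkbiz, an atypical IkB protein, 3.34 and 2.92 against 7.97 and 9.65 (limma adjusted p = 0.309). Myc had 19.3 and 18.7 at 60 min, against 30.5 and 28.0 at 15 min (limma adjusted p = 0.641). Of 16 interferon response genes tested 0 passed. B2m, the light chain of MHC class I, had 10.3 and 9.19 at 60 min and 10.3 and 9.71 at 15 min, against 6.50 and 6.70 in control (limma adjusted p = 0.588 at 60 min and 0.747 at 15 min), and the interferon-induced gene Rsad2 had 5.62 and 2.14 at 60 min against 8.46 and 9.20 at 15 min (limma adjusted p = 0.717).

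The partners of the SOCS box were abundant. Elob and Eloc, which encode elongins B and C, ran from 235 to 452 and from 84.2 to 129, and the scaffold Cul5 had 65.9 and 74.7 at 60 min against 49.3 and 51.8 in control (limma adjusted p = 0.569). Ube2f, the NEDD8-conjugating enzyme that serves cullin 5, had 51.8 and 50.2 at 60 min against 27.3 and 38.9 (limma adjusted p = 0.539). Of the 9 ligase subunits 0 passed, 8 were higher at 60 min than in control (median 0.24) and 9 at 15 min (median 0.33). Over all genes 62.7% were lower at 60 min (median −0.12) and 59.4% at 15 min (median −0.098). Without control s1 the counts of higher subunits were 5 and 7 of 9, and with median-of-ratios scaling 9 and 9.

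Other SOCS box proteins had mostly lower values at 60 min. Of 14 tested 13 were lower at 60 min than in control (median −0.43), beside 62.7% lower and a median of −0.12 over all genes, and 0 passed. Without control s2 the count was 8 (median −0.11), and with median-of-ratios scaling 11 (median −0.26). Asb13 had 4.81 and 3.81 at 60 min against 9.14 and 7.91 in control (limma adjusted p = 0.427) and Asb8 8.52 and 5.33 against 10.7 and 16.3 (limma adjusted p = 0.541). Among 12 further inhibitors of the pathway 0 passed, with a median of −0.36 at 60 min from control, or −0.13 without control s1. The 2 with the smallest p encode PIAS proteins, which restrain STATs in the nucleus. Pias4 had 14.0 and 15.5 at 60 min against 25.4 and 31.8 in control (limma adjusted p = 0.401), and Pias3 6.13 and 5.23 against 12.2 and 10.3 (limma adjusted p = 0.428). The change of Pias1 was −0.52 (limma adjusted p = 0.553) and that of Pias2 0.10 (limma adjusted p = 0.943).

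Substrates and partners of the less cytokine-dependent members were measured too. Dab1, the substrate of SOCS7, had 216 and 192 at 60 min and 231 and 192 at 15 min, against 147 and 138 in control, so both heated groups lay above control, with limma adjusted p = 0.556 at 60 min and 0.747 at 15 min. Lrp8, a Reelin receptor, had 56.7 and 71.5 at 60 min against 87.0 and 114.8 in control (limma adjusted p = 0.534). Of 11 genes of Reelin and Dab1 signalling 0 passed, with a median of 0.092 at 60 min from control that was −0.036 without control s1. Of 10 genes of insulin and growth factor signalling 0 passed, and Irs2, an insulin receptor substrate, had 13.8 and 15.7 at 60 min against 17.9 and 28.1 in control (limma adjusted p = 0.654).

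**Figure D4:**
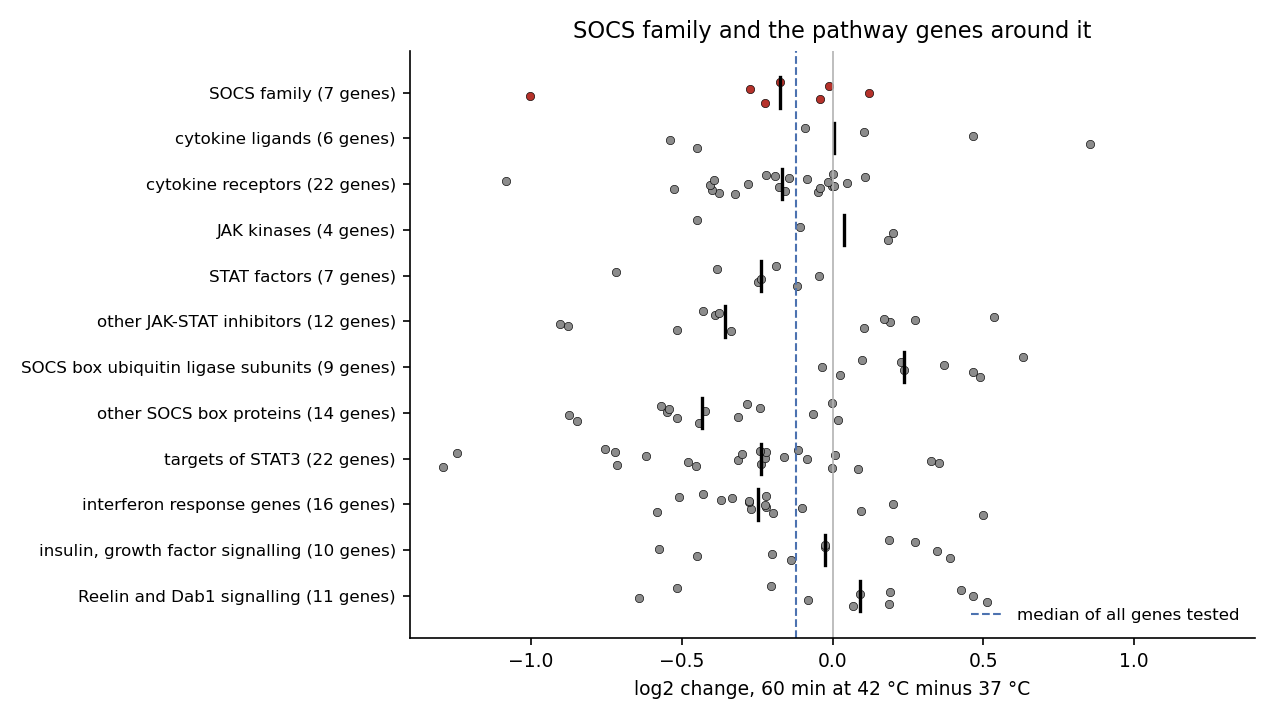
Change on the log2(value + 1) scale at 60 min at 42 °C from control for each gene tested of the SOCS family (red) and of 11 lists around it (grey), with the median of each list as a black bar and the median of all genes tested (−0.12) as a dashed line. Socs3 (−1.0) is the lowest member of its family, SOCS box ligase subunits (median 0.24) lie mostly above 0 and other SOCS box proteins (median −0.43) mostly below.

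The genes whose levels over the 6 libraries were most like those of Socs3 were Ypel4, Zfp867 and Zfp747. Likeness was the Euclidean distance between log2(value + 1) profiles, each centred on its own mean, over 11805 genes with a symbol and a mean of at least 5, and the distances were 0.172, 0.22 and 0.254. Ypel4, of the yippee family, had 2.46 and 3.60 at 60 min, against 6.41 and 7.68 in control, Zfp867, a zinc finger gene, 2.53 and 3.01 against 6.78 and 7.82, and Zfp747, another, 3.46 and 4.57 against 6.79 and 8.34. In each of the 3 genes the 60 min libraries lay below the other 4, which comes with picking them by likeness over these same libraries. For Socs6, the member with the highest mean, the nearest were Mtr, methionine synthase, at a distance of 0.0489, Pcid2 at 0.0665 and B3gat3, an enzyme of proteoglycan synthesis, at 0.0744, and the control and 60 min libraries overlapped for all 3.

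**Figure D5:**
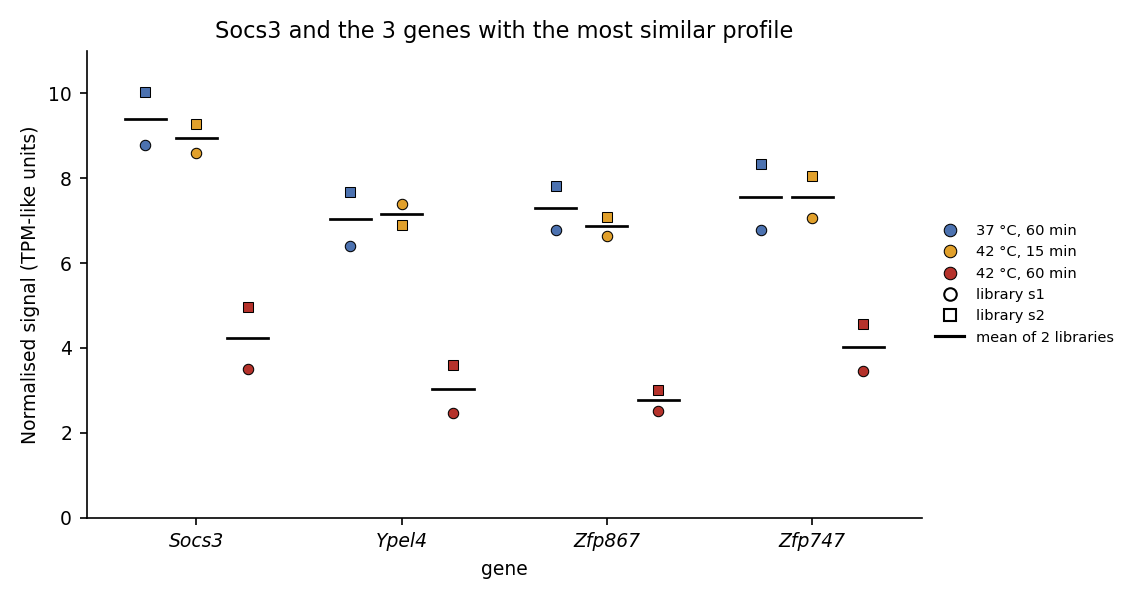
Normalised signal of Socs3 and of the 3 genes with the most similar profile in each of the 6 libraries: circles are library s1, squares library s2 and black lines the mean of the 2 libraries of a group. In all 4 genes both 60 min libraries lie below the control and 15 min libraries, which for the 3 comes with picking them by likeness to Socs3.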

How the data were processed

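Total RNA of 6 libraries was measured. Per the labels' protocols, RNA was extracted with a microprep kit and libraries were made with ribosomal RNA removal, read as single ends of 100 bp. Per the submitters' processing notes, kallisto and sleuth were used with GRCm39; no source used here gives their versions, the annotation release, the strand setting or how transcripts became genes. The authors deposited a normalised signal per gene, TPM by name with a further factor per library. Its columns name the group and a suffix only, so s1 and s2 are names. Ribosome-associated RNA was not analysed here.

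The members and gene lists were chosen with earlier results of these data known. On the log2(value + 1) scale, the 21954 genes whose mean was 1 or higher were fitted with limma 3.58.1 in R 4.3.3, with group as the only term, a mean-variance trend and 3 residual degrees of freedom. The 3 two-sided contrasts were called at a Benjamini-Hochberg adjusted p of 0.05, adjusted over every gene in the fit, and the fit was tested on simulated data. Fold changes on this scale understate the change of low genes. Per list and comparison, up to 2 genes with the smallest p were named, besides JAK and STAT genes, Cul5, the elongins and Dab1; an item under this rule is not reported here. Lif, Ctf1, Pias1, Pias2, the Tubb3, Map2, Dcx, Vim, Pax6 and Sox2 examples, and the choice of promoters to print fell outside that rule. So did the values of the markers Eomes, Sox2, Hes1, Neurod6, Tubb3, Fabp7, Vim and Map2, chosen after they were seen. Symbols came from a table that named 52028 of the 55538 genes. Overlaps between genes came from GENCODE M21 and promoters from RefSeq, both on GRCm38, so no coordinates of the files are given. Alternatives tried were a pseudocount of 0.1 or 5, dropping the filter or raising it to a mean of 5, median-of-ratios scaling, a replicate block, and leaving out each library in turn.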

Additional observations from a re-analysis of the deposited data

How the results depend on the processing

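Over 7 members, 3 comparisons and 12 alternatives, 0 of 252 values passed limma's test, and 29 changed sign. The count of members called was 0 under every alternative tried. Changes of Socs3 and Cish at 60 min from 15 min, of Socs2 and Cish at 15 min from control, of Socs2 at 60 min from 15 min, of Socs3 at 60 min from control and of Socs4 at 15 min from control kept their sign under all 12. The filters, the replicate block and leaving out a library of the group not compared cannot move an estimate. For Socs3 at 60 min from control, and for Socs2, Socs3 and Cish at 60 min from 15 min, the groups did not overlap. There neither a pseudocount nor leaving out a library can turn the sign, and only median-of-ratios scaling could. Socs2 at 15 min from control was at 0.00097 without control s1, which gives no direction.

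With median-of-ratios scaling the change at 60 min from control turned to 0.15 for Socs2, 0.18 for Socs6 and 0.013 for Socs7, at 15 min from control to 0.24 for Socs3, 0.050 for Socs5 and 0.065 for Socs7, and at 60 min from 15 min to −0.14 for Socs5 and −0.052 for Socs7. Leaving out each library in turn gave, at 60 min from control, −0.24 to 0.16 for Socs2, −0.11 to 0.35 for Socs4, −0.61 to 0.064 for Socs5, −0.17 to 0.15 for Socs6, −0.80 to 0.45 for Socs7 and −0.62 to 0.17 for Cish. At 15 min from control it gave −0.15 to 0.021 for Socs3, −0.61 to 0.061 for Socs5, −0.054 to 0.27 for Socs6 and −0.89 to 0.36 for Socs7. At 60 min from 15 min it gave −0.32 to 0.14 for Socs4, −0.26 to 0.27 for Socs5, −0.24 to 0.00018 for Socs6 and −0.14 to 0.32 for Socs7. The causes were not tested.

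Genes called over the whole table at 60 min from control numbered 9 (6 higher, 3 lower), 5 with a pseudocount of 5, 5 with no filter, and, after median-of-ratios scaling, 28 (23 higher, 5 lower). Without control s1 there were 48 (9 higher, 39 lower), without control s2 146 (22 higher, 124 lower), without either 15 min library 2, and without either 60 min library 0. At 15 min from control 0 were called, 7 with median-of-ratios scaling (5 higher, 2 lower), 41 without control s1 (2 higher, 39 lower), 216 without control s2 (17 higher, 199 lower) and 0 without any other library. At 60 min from 15 min 4 were called (3 higher, 1 lower), 34 after median-of-ratios scaling (24 higher, 10 lower), 2 without 15 min s1, 1 without 15 min s2 and 0 without either control or either 60 min library. At 15 min from control, 868 genes had an unadjusted p under 0.05.

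The suffixes s1 and s2 were not taken to pair libraries, since nothing ties them to a shared culture and the deviations of same-suffix libraries correlated across genes at 0.079 to 0.22. With a replicate block by suffix 8 genes were called at 60 min from control, 0 at 15 min from control and 4 at 60 min from 15 min, and Socs3 at 60 min from control had limma adjusted p = 0.235. In the same order of comparisons, genes with limma's unadjusted p under 0.05 numbered 2758, 1878 and 1972 with the block. Without it they numbered 1830, 868 and 1360. A fit that leaves out 1 library assumes that the lone one varies like the other groups. Depth is unknown, so no detection limit can be given for Socs1.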
